A study of Homo sapiens with 4 samples.

Results

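Cytosolic ribosomal protein genes encode the proteins that, with ribosomal RNA, build the ribosome of the cytoplasm. The group was taken from the RefSeq gene table as protein-coding genes whose symbol is RPL or RPS followed by a number, together with RPLP0, RPLP1, RPLP2 and RPSA. The RPS6K kinase genes, readthrough genes, RPS19BP1 and the paralogues ending in L, or in L and a number, were left out. This gave 79 genes among 20037 protein-coding genes, 46 for the large subunit and 33 for the small subunit. FAU, which encodes a small subunit protein as a fusion, falls outside this naming rule.

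The study profiled H3K27ac, acetylation of lysine 27 on histone H3, by ChIP-seq in K562. K562 is an established line from a chronic myeloid leukaemia in blast crisis, with erythroid features, used here in a study of acute myeloid leukaemia. One H3K27ac library came from cells kept for 18 h in 1 uM daunorubicin, the other from untreated cells, and each condition had 1 input library made without antibody. Daunorubicin, an anthracycline used against leukaemia, inserts into DNA and traps topoisomerase II on it. With 1 library per condition there were no replicates, so no difference below was tested and none has a replicate check.

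The authors deposited 1 list of called peaks per library, each peak with a position and a score. The daunorubicin H3K27ac list held 65118 peaks and the untreated list 38626, and the inputs held 87 and 92. Sequencing depth is unknown, and library and treatment cannot be told apart, so the main counts at ribosomal protein genes are given beside the same count over all protein-coding genes. Of 10 erythroid genes used to check the cell label, 9 had a peak within 1 kb of an annotated end with daunorubicin and 8 without it, and only the embryonic globin gene HBE1 had none in either library. Of 6 markers of other cell types, CD3E and EPCAM had an end marked in both libraries, ALB and PAX6 only with daunorubicin (scores 20 and 16), and the others, among them MS4A1, in neither.

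Their genes are among the most strongly transcribed in growing cells. Many of their messenger RNAs begin with a C followed by a run of C and U, the terminal oligopyrimidine tract, through which translation is adjusted to growth signals. Their introns often carry small nucleolar RNAs (snoRNAs) that guide the modification of ribosomal RNA. H3K27ac usually flanks the start sites of active genes and extends into their first part.

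The letters around the start show this promoter type, and are given for genes at which peak cover in the 2 kb after the start differed most between the libraries (RPL36A, RPS23, RPL10, RPS4X, RPL12, RPLP0 and RPL35A) and for RPS19 and RPS14, known from inherited and acquired anaemia. Each sequence is from RefSeq (GRCh38.p14), runs 5′ to 3′ on the gene's strand from 35 bases before the annotated start and includes 15 bases from the start on. Capitals mark the unbroken run of C and T that holds the start base. RPL10 and RPS4X have an A at the annotated start and so no capitals.
RPL36A, chrX:101390976-101391025, plus strand: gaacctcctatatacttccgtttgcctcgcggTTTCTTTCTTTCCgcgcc
RPS23, chr5:82278340-82278389, minus strand: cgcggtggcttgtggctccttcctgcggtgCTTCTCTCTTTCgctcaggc
RPL10, chrX:154398030-154398079, plus strand: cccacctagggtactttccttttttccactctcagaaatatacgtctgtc
RPS4X, chrX:72277234-72277283, minus strand: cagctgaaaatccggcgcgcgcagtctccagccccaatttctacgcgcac
RPL12, chr9:127451392-127451441, minus strand: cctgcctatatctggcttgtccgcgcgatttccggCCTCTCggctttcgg
RPLP0, chr12:120201097-120201146, minus strand: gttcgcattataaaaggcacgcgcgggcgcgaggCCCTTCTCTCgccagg
RPL35A, chr3:197950155-197950204, plus strand: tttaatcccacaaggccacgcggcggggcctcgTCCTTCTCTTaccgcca
RPS19, chr19:41860220-41860269, plus strand: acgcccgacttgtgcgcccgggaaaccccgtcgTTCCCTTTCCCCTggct
RPS14, chr5:150449725-150449774, minus strand: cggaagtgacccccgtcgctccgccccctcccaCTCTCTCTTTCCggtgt

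An annotated start within 1 kb of the gene end was found for 63 of the 79 genes. A run of at least 5 C or T letters over the start was present in 45 of these 63 (71.4%), against 7.99% of 14568 protein-coding promoters in the same table. The start base was C in 47 (74.6%), against 11.3% of all. On the gene strand, within 250 bases before and 50 after the start, CTTTCC occurred in 25 (39.7%, against 14.4%) and CTTTTC in 17 (against 10.4% of all promoters). On either strand, CCGGAAG, a motif of ETS family factors, occurred in 21 (33.3%, against 14.7%) and AAGATGG, the core of the YY1 motif, in 8 (12.7%, against 6.59%). GGGCGG, the GC box, occurred in 34 (54.0%, against 59.1%) and TATAAA in 5 (7.94%, against 9.76%). The CTTTCC and CTTTTC matches may overlap, as may those of CCGGAAG and AAGATGG, and each was counted on its own.

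Nearly the whole group was marked in both libraries. A peak lay within 1 kb of an annotated end of 77 of the 79 genes with daunorubicin and of 77 without it, and these were the same 77 genes. Among all protein-coding genes 62.5% were marked with daunorubicin, 58.4% without it and 57.6% in both. No ribosomal protein gene had its ends marked in 1 library only, a state found at 4.91% of all genes for daunorubicin only and at 0.749% for untreated only. When a peak had to cover the end base itself, 69 genes were marked in both libraries (44.2% of all genes), 4 only untreated (4.61%) and 6 in neither (47.2%). Within 1 kb, the 2 genes with no marked end (36.7% of all genes) were RPS4Y1 and RPS4Y2, Y-linked counterparts of RPS4X, and neither H3K27ac list had any peak on chromosome Y. At the 77 marked genes the nearest peak lay at most 122 bp from an end in either library, the distance at RPL27. No input peak lay within 10 kb of any of the 79 genes.

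The highest-scoring peak at each gene end stood high in its own list. The score is the authors' value, without a stated formula, and was used only as a rank within 1 list. The median percentile over the 77 genes was 88.1 in the untreated list (59.3 to 99.0), against 84.8 for all genes with an end marked in both libraries. In the daunorubicin list it was 90.8 (63.1 to 99.4), against 88.9. Such a peak in the top 25% of its list was found at 73 genes without daunorubicin (43.0% of all protein-coding genes) and at 68 with it (47.1%). The medians were thus only slightly above those of marked genes, and 4 genes stood lower than the top 25% untreated: RPL26, RPL36A, RPL35A and RPS24.

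The highest-ranked genes untreated were RPL22, RPL17 and RPL5. RPL22, which encodes a large subunit protein that cells can do without, had a peak of score 434 (percentile 99.0) in the untreated list and of 242 (97.1) in the daunorubicin list. RPL17 had scores of 432 (99.0) and 248 (97.4). RPL5, whose protein carries ribosomal RNA to the large subunit and with RPL11 can bind the p53 regulator MDM2, had 409 (98.6) and 192 (94.0). RPL11 had 225 (88.1) and 120 (84.4). All 4 genes thus ranked in the top 25% of both lists.

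Lowest in the untreated list were RPL26, RPL36A and RPL35A. RPL26, next to the exit of the nascent peptide on the ribosome, had a score of 57 (percentile 59.3) in the untreated list and of 101 (80.3) in the daunorubicin list. RPL36A had 66 (62.9) and 63 (66.6), and RPL35A 105 (72.4) and 92 (77.8). RPS19, needed to mature the small subunit, had 391 (98.2) and 315 (99.1), and RPS14, a platform protein of the small subunit, had 320 (95.6) and 282 (98.5). The stalk genes RPLP0, RPLP1 and RPLP2 had untreated percentiles of 83.1, 86.4 and 85.9 and daunorubicin percentiles of 92.2, 84.0 and 85.3.

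The peaks at the gene ends were wider than at most marked genes, and more of them were shorter with daunorubicin than were longer. Peaks at the ends covered a median of 1991 bp per gene in the untreated library (950 to 3144) and 1904 bp in the daunorubicin library (601 to 3025). Over all genes marked in both libraries the medians were 1531 and 1636 bp. End peaks covered less with daunorubicin at 48 of the 77 genes (36.8% of all genes marked in both) and more at 29 (63.1%). The median difference, daunorubicin minus untreated, was -77 bp, against 93 bp over all genes marked in both.

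How far less cover held across widths depended on the split. By untreated end cover, it was found at 13 of 32 genes between 1500 and 2000 bp (40.6%, against 38.6% of protein-coding genes). Between 1000 and 1500 bp it was 4 of 7 (against 31.1%), and between 2000 and 2500 bp 24 of 30 (80.0%, against 47.3%). From 2500 bp upwards it was 7 of 7 (against 56.4%), and a split by untreated cover favours less cover at the widest. By the mean end cover of both libraries, a split added after the data were seen, 21 of 36 ribosomal protein genes between 1500 and 2000 bp (58.3%) had less cover with daunorubicin, against 35.4% of 3638 protein-coding genes. Between 2000 and 2500 bp it was 16 of 26 (61.5%), against 33.9% of 1810. From 2500 bp upwards it was 5 of 7, against 37.6% of 1048, and between 1000 and 1500 bp 5 of 7, against 1274 of 3352.

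The difference lay mainly on the gene side of the start, by a measure that was not among the planned results. For 61 of the marked genes the start was known, and the bases covered by peaks were counted in the 2 kb before and the 2 kb after it. After the start, cover was less with daunorubicin at 46 of 61 genes (39.4% of all) and more at 15 (55.8%). All genes here are the 9034 protein-coding genes marked in both libraries that had a known start. The daunorubicin median was 937 bp and the untreated median 1086 bp, and the median difference -149 bp, against 24 bp over all genes. Before the start, cover was less at 20 (40.5%) and more at 39 (52.7%), with medians of 823 and 784 bp and a median difference of 44 bp, against 11 bp over all genes.

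**Figure D1:**
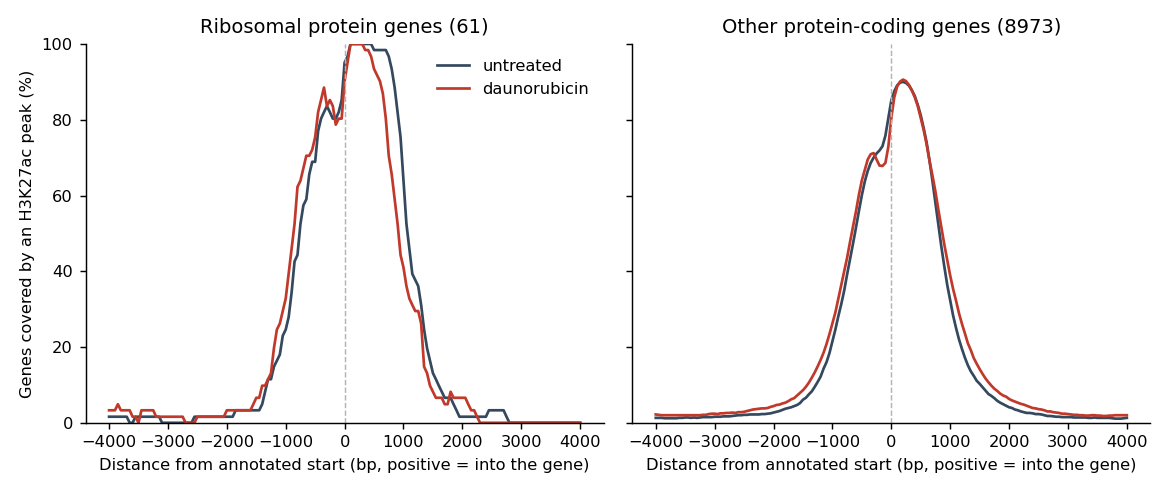
Share of genes covered by an H3K27ac peak (percent, vertical axis) at each distance from the annotated start (bp, horizontal axis, positive into the gene), for 61 ribosomal protein genes (left) and 8973 other protein-coding genes with an end marked in both libraries (right). At 1000 bp into the gene, 63.9% of the ribosomal protein genes were covered without daunorubicin and 41.0% with it, and 32.3% and 38.9% of the others.

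The profile of peak cover around the start shows where this difference lay. From 100 to 300 bp after the start all 61 genes were covered in both libraries. From 350 to 1750 bp fewer were covered with daunorubicin. From 1800 to 2200 bp more were, with 6.6% against 1.6% untreated at 2000 bp. At 1000 bp after the start, 63.9% of the 61 genes were covered in the untreated library and 41.0% in the daunorubicin library. Other marked genes had the opposite order there, with 32.3% untreated and 38.9% with daunorubicin. At least 50% of the ribosomal protein genes were covered from 750 bp before to 1050 bp after the start in untreated cells, and from 850 bp before to 900 bp after it with daunorubicin. At the start itself cover was 95.1% and 90.2%.

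The outer edges of the peaks lying within 1 kb of the start were compared next. With daunorubicin the edge on the gene side was nearer to the start at 46 of 61 genes (41.5% of all) and farther at 15 (58.1%). The median shift was -154 bp (31 bp over all genes). All genes here are the 8778 marked in both with such peaks in both libraries. The edge before the start was farther out at 41 (58.7%) and nearer at 20 (40.9%), with a median outward shift of 47 bp (29 bp over all). When any peak in the 2 kb after the start was counted, the last covered base was nearer at 42 of 61 (39.5% of 8498 genes) and farther at 19 (60.1%). RPL10A, RPS13, RPL41 and RPL36A were nearer by the first measure and farther by the second, since a separate daunorubicin peak lay farther into the gene.

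**Figure D2:**
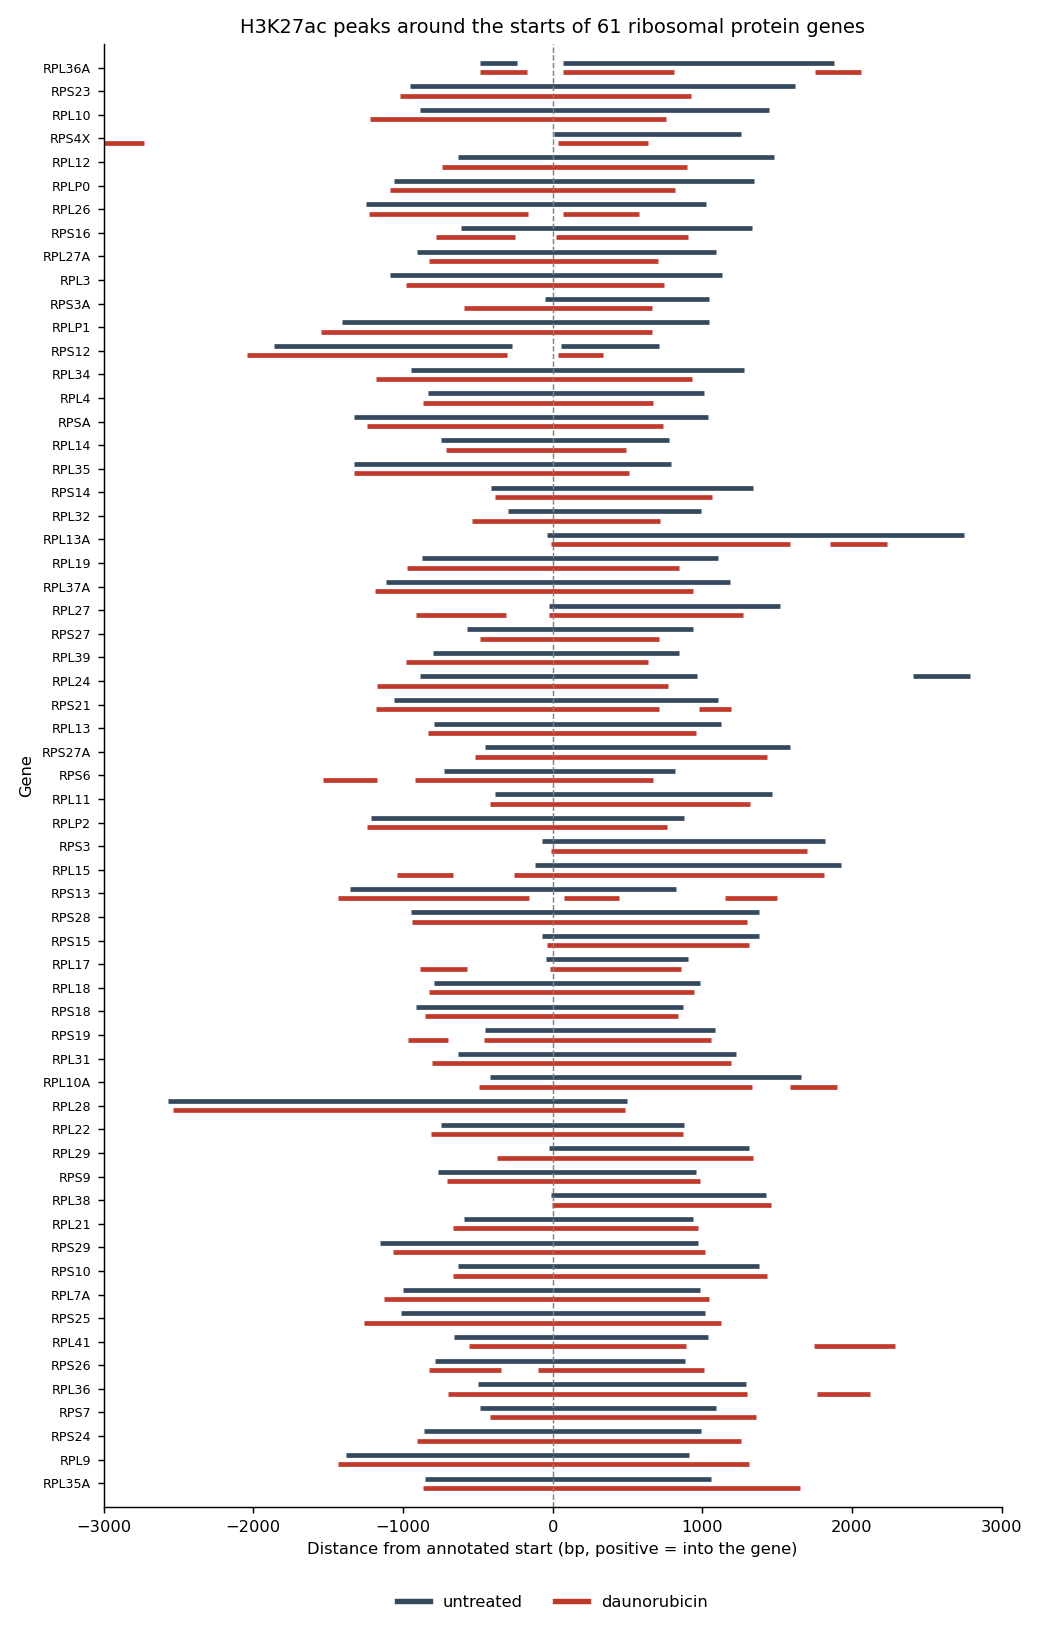
H3K27ac peaks (bars) at 61 ribosomal protein genes, 1 gene per row, by distance from the annotated start (bp, horizontal axis, positive into the gene), untreated above and daunorubicin below in each row. Rows are ordered from the gene with the largest deficit of cover after the start with daunorubicin (RPL36A) to the one with the largest excess (RPL35A), and in most rows the untreated bar reaches farther to the right.

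RPL36A, RPS23, RPL10 and RPS4X had the largest deficits after the start, and like others named here for this measure they were chosen after their values were seen unless the naming rule held them. At RPL36A (chromosome X, 101391011 to 101396155) 991 bp of the 2 kb after the start were covered with daunorubicin and 1810 bp without it. There the untreated peak was met by 2 daunorubicin peaks with a gap of 942 bp, and an end of BTK lies within 1 kb of it. At RPS23 (chromosome 5, 82273320 to 82278354), a protein of the decoding centre, the values were 925 and 1620 bp. At RPL10 (chromosome X, 154398065 to 154402339), a late-joining protein of the large subunit, they were 760 and 1445 bp after the start but 1217 and 883 bp before it. At RPS23 and RPL10 the untreated peak ran farther into the gene, at RPL36A the second daunorubicin peak reached beyond it, and at RPL10 the daunorubicin peak also began farther before the start.

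At RPS4X (chromosome X, 72272042 to 72277248) peaks covered 601 bp after the start with daunorubicin and 1247 bp untreated, with none in the 2 kb before the start in either library. RPL12, a protein of the stalk base, had 896 and 1480 bp. Among the stalk proteins, which recruit translation factors, RPLP0 had 818 and 1345 bp, RPLP1 666 and 1047 bp, and RPLP2 764 and 881 bp. All 3 stalk genes thus had less cover after the start with daunorubicin, and slightly more before it, with 1085 against 1061 bp at RPLP0, 1550 against 1408 bp at RPLP1 and 1241 against 1215 bp at RPLP2.

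RPSA, whose protein sits on the small subunit and is also known as a laminin receptor precursor, had 738 bp covered after the start with daunorubicin and 1040 bp untreated. RPS14 had 1064 and 1336 bp, RPS27A, made as a fusion with ubiquitin, 1431 and 1585 bp, and RPL11 1316 and 1463 bp. RPS19 (1057 and 1086 bp) and RPL22 (868 and 877 bp) were nearly equal. The opposite order was clearest at RPL35A (chromosome 3, 197950190 to 197956610), with 1650 and 1055 bp, at RPL9 with 1313 and 911 bp, and at RPS24 with 1262 and 993 bp. Genes of both subunits and of the stalk were therefore found on the side with less cover.

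**Figure D3:**
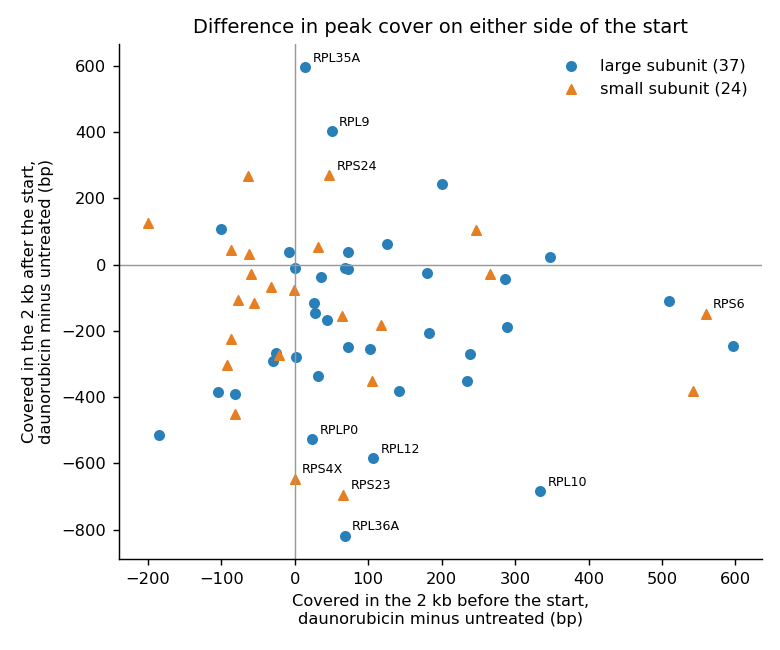
Difference in covered bases, daunorubicin minus untreated, in the 2 kb before (horizontal axis, bp) and the 2 kb after (vertical axis, bp) the annotated start, 1 point per gene, circles for 37 large subunit and triangles for 24 small subunit genes. Of the 61 points, 46 lie below the horizontal zero line, and 39 lie to the right of the vertical one.

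By subunit, cover after the start was less with daunorubicin at 29 of 37 large subunit genes and at 17 of 24 small subunit genes, with median differences of -188 and -111.5 bp. Before the start, 29 large subunit genes had more cover and 7 less, whereas 10 small subunit genes had more and 13 less. This contrast between the subunits was not tested. Among genes with a run of at least 5 C or T at the start, 32 of 44 had less cover after the start, and among those without it 14 of 17, with medians of -166 and -147 bp.

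Ribosomal protein genes are short and often lie close to other genes, and the counts were repeated with that in view, in groups chosen after the data were seen. Among 1972 other genes of at most 10 kb, 47.2% had less cover after the start. Among 1109 others that were both this short and had a mean end cover of at least 1500 bp over both libraries, it was 49.1%, against 35 of 47 ribosomal protein genes with the same limits (74.5%). At 26 of the 77 genes the highest-scoring untreated end peak also lay within 1 kb of an end of another coding gene, as at RPL5 beside DIPK1A and RPLP2 beside PIDD1. Without these, 32 of 41 genes with a known start had less cover after it, and with such a neighbour 14 of 20.

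Genes of related function gave other values. Mitochondrial ribosomal protein genes, which encode the separate ribosome of mitochondria, had an end marked in both libraries at 75 of 77 genes. Of the 66 of these with a known start, 29 had less cover after it (43.9%) and 36 more, with a median difference of 38 bp. Ribosome biogenesis factors had less cover at 14 of 34 (41.2%), translation initiation factors at 16 of 28 (57.1%), and a list of elongation factors and other genes whose messages begin with the pyrimidine tract at 6 of 12. The shares in these lists ran from 41.2% to 57.1%, against 75.4% of the cytosolic ribosomal protein genes, and the differences between lists were not tested. Less cover by the end peaks, found at 62.3% of the marked ribosomal protein genes, was less particular to them. It was found at 5 of 8 marked erythroid genes (62.5%) and 8 of 15 in the elongation list (53.3%). Mitochondrial ribosomal protein genes (33.3%), initiation factors (32.4%) and biogenesis factors (35.9%) had lower shares.

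**Figure D4:**
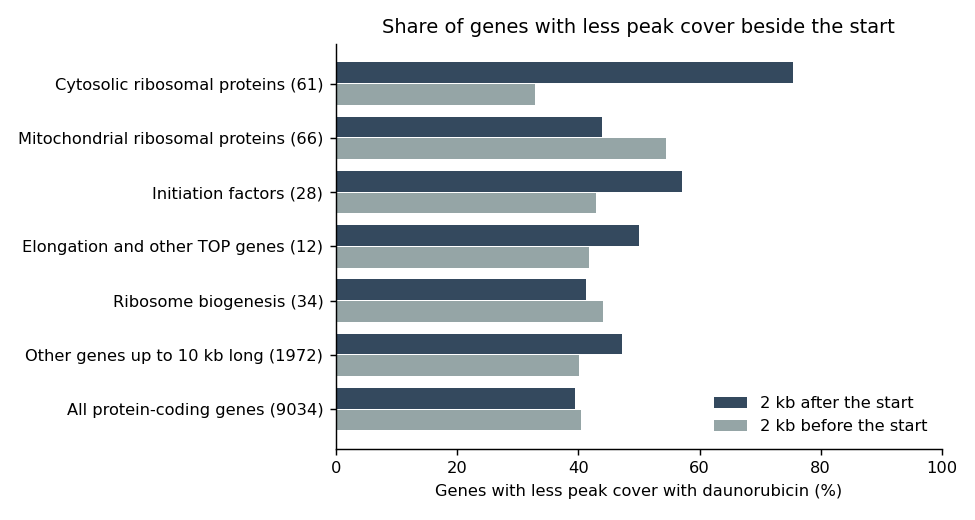
Share of genes (percent, horizontal axis) with less peak cover with daunorubicin in the 2 kb after the start (dark bars) and in the 2 kb before it (light bars), by gene list, with the number of genes in brackets. The dark bar of the cytosolic ribosomal protein genes stands at 75.4% and that of all protein-coding genes at 39.4%.

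Over a wider span the total marked length was nearly balanced. Within the gene and 10 kb on either side, peaks covered a median of 3027 bp with daunorubicin and 2523 bp without it at the 77 marked genes. In 44 of them the daunorubicin length was the longer, and in 33 the shorter. Over all genes with an end marked in both libraries, 78.1% were longer and 21.8% shorter. The median difference was 44 bp over the 77 genes, or 35 bp over all 79, against 522 bp over all genes marked in both. The windows of 1 pair of genes overlap, and both count the peaks they share.

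The count of 44 longer genes rests on peaks outside the end peaks. With equal numbers of highest-scoring peaks in both lists it was 31 longer and 46 shorter (62.1% and 37.8% of all genes marked in both). With a score of at least the untreated median in both it was 33 and 44 (71.0% and 28.9%), and inside the gene span alone 19 longer and 58 shorter (69.8% and 28.0%). Within 50 kb it was 61 longer and 16 shorter (87.3% and 12.7%). Away from the end peaks, daunorubicin peaks covered more at 39 of the 77 genes and less at 22, against 65.9% longer over all genes, with a median of 45 bp against 353 bp.

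**Figure D5:**
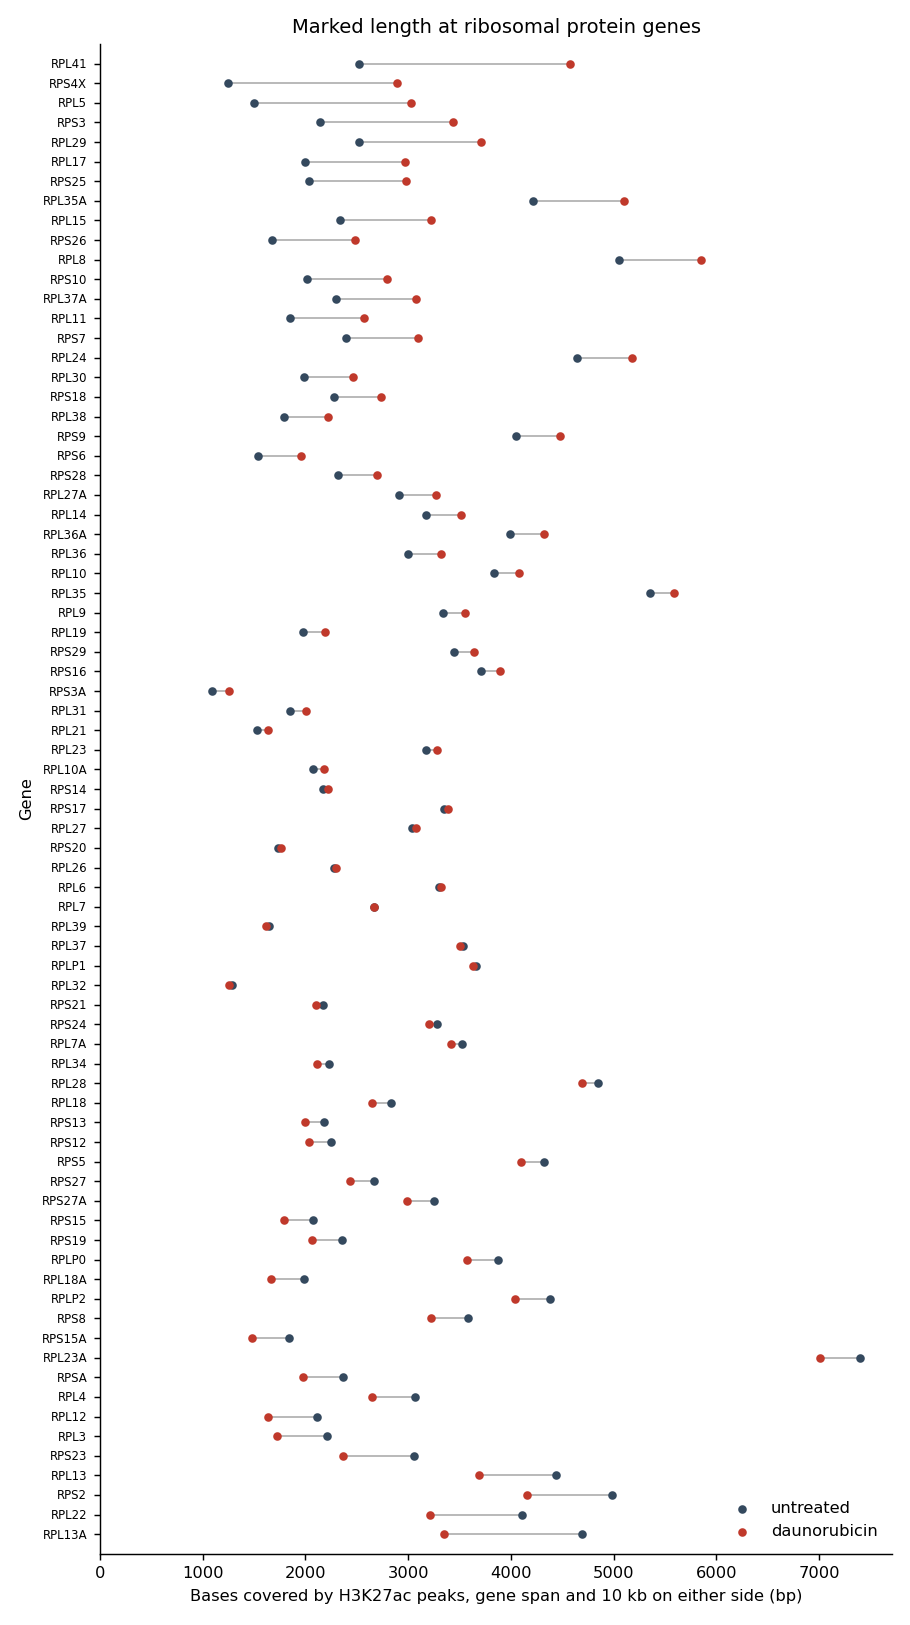
Bases covered by H3K27ac peaks within the gene and 10 kb on either side (bp, horizontal axis) at ribosomal protein genes with an end marked in both libraries, 1 gene per row with 1 of the 77 not shown, dark points untreated and red points daunorubicin, ordered by the difference. The difference runs from -1338 bp at RPL13A (bottom) to 2052 bp at RPL41 (top).

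The largest excess with daunorubicin was at RPL41, which encodes a very short basic peptide, with 4573 bp against 2521 bp. Next came RPS4X (2893 against 1247 bp), RPL5 (3027 against 1500 bp), RPS3, whose protein lines the entry of the messenger RNA (3432 against 2138 bp), and RPL29 (3709 against 2523 bp). At RPL41, peaks called only with daunorubicin lay near its end and that of ZC3H10 (56118381 to 56118920, score 56) and in its flank (56106843 to 56107318, score 60). At RPS4X a flank peak (72279979 to 72280701, score 105) was called only with daunorubicin, and at RPL5 another (92826579 to 92827551, score 57). At RPS4X the excess in the flank thus stood beside less cover at its own start.

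The largest deficit was at RPL13A (chromosome 19, 49487608 to 49492308), which encodes a large subunit protein and hosts snoRNAs, with 3353 bp against 4691 bp untreated. Its untreated end peak of 2784 bp was met by 2 daunorubicin peaks, the higher-scoring of 1596 bp. RPL22 had 3215 against 4108 bp, RPS2 4155 against 4987 bp and RPL13 3688 against 4435 bp. At RPS2 (chromosome 16, 1962058 to 1964826) the end peak was 1272 bp wide against 2397 bp untreated. The genes with the most end cover untreated, RPS9 (2528 bp with daunorubicin and 3144 bp without it in all), RPL4 (2647 and 3062 bp) and RPL28 (3025 and 3066 bp), had less with daunorubicin, an order that the choice by untreated cover favours. With daunorubicin, RPL17 (2754 bp against 950 bp untreated) and RPL9 (2745 against 2293 bp) also stood among the widest. At RPL17 much of this came from a shared region at an end of C18orf32 (49485947 to 49487615). Its daunorubicin peak reached within 1 kb of the RPL17 end, and its untreated peaks did not and were left out. The peak at the RPL17 start was 877 bp wide with daunorubicin and 950 bp untreated.

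At some genes the daunorubicin peak was in pieces. At 9 of the 77 genes the highest-scoring untreated end peak was overlapped by 2 daunorubicin peaks (10.3% of all genes marked in both), and the reverse occurred at none (1.61%). Among them were RPL10A, RPS13, RPS26, RPL26, RPS16, RPL13A, RPS21 and RPL36A, and the gaps over the 9 genes were 232 to 942 bp, with a median of 254 bp. The gap held the start itself at RPS13, RPL26 and RPS16. It lay wholly after the start at RPL10A, RPL13A, RPS21 and RPL36A and wholly before it at RPS26. The share of genes with such peaks, 11.7%, was close to that of all marked genes.

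Merging both lists within 10 kb of the 79 genes gave 201 regions. Of these, 145 were shared, 51 were called in the daunorubicin library alone and 5 in the untreated library alone. These are 72.1%, 25.4% and 2.49%, against 55.2%, 38.5% and 6.31% of 40777 regions within 10 kb of all genes with an end marked in both libraries. The daunorubicin list is the longer one, so more regions called in it alone are no result about these genes. Most daunorubicin-only regions, 37, lay in the flanks, 11 lay at an end of a ribosomal protein gene and 3 inside one. The 11 are 11.6% of the regions at these ends, against 6.96% at the ends of all genes marked in both. The highest-scoring was 1018 bp wide in the flank of RPL15 (chromosome 3, 23905709 to 23906726, score 127). At RPL27 a region just before the start (chromosome 17, 42997509 to 42998105, score 114) was called only with daunorubicin, so that 621 bp before the start were covered against 24 bp. The untreated-only region with the highest score, 123, lay in the flank of RPS19 at an end of another gene, ARHGEF1 (chromosome 19, 41882910 to 41884818). No region at an end of a ribosomal protein gene was called in the untreated library alone (1.58% at the ends of all genes marked in both).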

How the data were processed

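H3K27ac ChIP-seq was analysed in 2 K562 libraries, with 2 input libraries as background, 1 library per condition. The submitters' processing notes name MACS2 2.1.1, Bowtie2 2.3.4.3 and deepTools 3.2.1, and the builds hg19 and hg38, but their parameters and thresholds are not given in the sources. For each library the authors deposited peaks with 1 score per peak, and groups were read from the treatment and antibody labels. Depth is unknown, which limits any comparison of list lengths and peak widths. Gene ends and start sites came from RefSeq tables of GRCh38.p14, with coordinates counted from 1, and the lists carry sequence names of hg38. Where a gene had several annotated starts, the one nearest its outer end was used. Cover was counted in bases with Python 3.11.15, and overlap functions were tested on simulated peaks against bedtools 2.31.1. There was no test and no p-value. Members and gene lists were chosen with earlier results of these data known. Named genes were those with no marked end, the 5 largest gains and losses of marked length, the 3 highest and lowest ranks, the 3 widest ends and 10 set genes; others named were chosen after their values were seen. A few genes are counted but not reported by name here. Alternatives were 11 planned and 4 added after seeing the data. The measures around the start were not among the planned results, so no alternative was planned for them.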

Additional observations from a re-analysis of the deposited data

How the results depend on the processing

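Of 110 values under 11 planned and 4 added alternatives, 91 moved by less than 1.5 times or by less than their spread. Another 15 moved by more, and 4, all medians of marked length, changed sign. The 91 include counts whose majority changed. Genes with longer and shorter marked length numbered 44 and 33 in the main setting. They numbered 33 and 44 with the untreated median score as cut, and 31 and 46 with equal numbers. Within 1 kb of the gene they numbered 30 and 47. The score percentiles, with main medians of 90.8 and 88.1, could not rise by 1.5 times. Less cover after the start was found at 46 genes when peaks under the untreated median score of 43, peaks beyond equal numbers, or peaks on input peaks were left out. These settings were a weak check. No input peak lay within 10 kb of these genes, so leaving such peaks out could not change their cover, and those values count among the 91. The highest-scoring end peaks all scored at least 57, above the cut of 43, and equal numbers left the untreated list as it was. When a peak had to cover the gene end, 4 genes were marked only without daunorubicin and 6 in neither library. The marked length depended on the window, with 61 longer and 16 shorter (median 869 bp) within 50 kb, a median of -77 bp within 1 kb, and 19 longer and 58 shorter (median -145 bp) in the gene alone. The median was -49 bp with the stricter score and -74 bp with equal numbers of peaks. Within 1 kb of the start, 35 genes had less cover after it and 7 more. Over 9034 genes marked in both with a known start these shares were 35.8% and 40.3%. Medians at the ribosomal protein genes were -39 bp after the start and 0 bp before it. Regions called only with daunorubicin numbered 25 with the stricter score, 20 with equal numbers, 89 with a reciprocal overlap of 50% and 26 with a gap of 1 kb, and untreated-only regions 15 with equal numbers and 33 with the reciprocal overlap. The cause of these differences was not tested. No paired analysis was possible because each condition had 1 library. Depth is unknown and limits the reading of peak widths.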

Other observations

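Ribosomal protein genes have many processed pseudogenes, copies of the messenger RNA without the promoter. The gene table held 1989 annotated pseudogenes of ribosomal protein genes, and whether each is a processed copy was not checked. Of these, 162 (8.14%) were marked at an end with daunorubicin and 85 (4.27%) untreated, by the same distance of 1 kb. At 26 of the 173 marked in either library, every such peak also lay within 1 kb of an end of a protein-coding gene. The daunorubicin list is the longer one, so its higher count is no result about the pseudogenes.

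Of the 8 paralogues left out of the group, 6 had an end marked in both libraries. RPL39L had 1130 bp of end peaks with daunorubicin and 1253 bp without it, RPS27L 2399 and 1838 bp, and RPL7L1 2163 and 2035 bp. RPL10L and RPL26L1 had no marked end in either library. FAU, which encodes a small subunit protein as a fusion, had 1682 bp against 1911 bp untreated.

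Of the 79 ribosomal protein genes, 29 held annotated snoRNA genes within their span, 60 in all. These genes lay on 22 chromosomes, 12 of them on chromosome 19.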
